A study of Caenorhabditis elegans with 2 samples.

Results

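The str, srz and srr genes of Caenorhabditis elegans are 3 families of putative chemoreceptors, and the data show where binding regions of the nuclear hormone receptor NHR-28 lay relative to them. Members were all protein-coding genes of Ensembl release 115 (assembly WBcel235, the ce11 build) whose symbol is str-, srz- or srr- followed by a number. There were 265 members among 19973 protein-coding genes: 193 str, 63 srz and 9 srr genes. The data came from chromatin immunoprecipitation with sequencing (ChIP-seq) of eGFP-tagged NHR-28 in whole L4 larvae of strain OP317, genotype unc-119(ed3) III with the integrated transgene wgIs317, males and females pooled. The labels give 2 biological replicates of this 1 group. Both carry the unc-119 mutation and the transgene, and the sources used here do not name the transgene's promoter or the cells that express it. No control sample was analysed here, and read depth is unknown, so each value below is the authors' signal value of a region, on a scale that is not stated. The authors' optimal set, made from a pooled list and the lists of both replicates, held 8745 regions with signal values from 36.2 to 993.

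Chemoreceptors of these families are seven-transmembrane proteins predicted to couple to G proteins, and most studied ones are expressed in a few pairs of ciliated sensory neurons in the head. The str family is the best known: the diacetyl receptor ODR-10 belongs to it, and str-2 is a classic marker of asymmetric expression between the paired AWC olfactory neurons. The srz and srr families are called solo families, because they fall outside the larger Str, Sra and Srg superfamilies. The ligands of most members are unknown. NHR-28 is one of the many HNF4-like nuclear receptors of the worm, and GATA factors, whose sites contain TGATAA, are the main regulators of intestinal genes.

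Very few members had a binding summit in the promoter, taken as 1000 bp upstream to 200 bp downstream of any start site of a protein-coding transcript (TSS, transcription start site). Of the 265 members, 10 (3.77%) had a summit of the optimal set there, against 4946 of 19973 protein-coding genes (24.8%). By family these were 5 of 193 str genes (2.59%), 2 of 63 srz genes (3.17%) and 3 of 9 srr genes (33.3%). The 10 genes were str-7, str-39, str-60, str-176, str-249, srz-56, srz-62, srr-4, srr-6 and srr-10, and they held 12 summits, since srr-4 and str-176 had a pair each. The chromatin came from whole larvae, so binding in few cells and weak binding in many cells cannot be told apart.

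Sequences of the summit base with 50 bases to each side are shown for 5 of the 12, chosen to set summits with the GATA-type sequence beside one without it. They are read from the plus strand of the RefSeq WBcel235 genome, and capitals mark TGATAA or its reverse complement TTATCA.
srz-62, chrIV:3899952-3900052: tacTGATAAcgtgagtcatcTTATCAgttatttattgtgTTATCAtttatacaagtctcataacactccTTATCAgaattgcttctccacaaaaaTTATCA
str-7, chrV:16100219-16100319: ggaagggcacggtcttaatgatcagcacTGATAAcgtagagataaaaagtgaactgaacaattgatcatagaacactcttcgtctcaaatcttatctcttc
str-39, chrV:2880493-2880593: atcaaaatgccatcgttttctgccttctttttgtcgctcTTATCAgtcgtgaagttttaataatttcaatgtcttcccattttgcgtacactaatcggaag
srr-6, chrV:5012300-5012400: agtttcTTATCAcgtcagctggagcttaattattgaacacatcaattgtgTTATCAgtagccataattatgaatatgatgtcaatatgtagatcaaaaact
srr-10, chrV:7735087-7735187: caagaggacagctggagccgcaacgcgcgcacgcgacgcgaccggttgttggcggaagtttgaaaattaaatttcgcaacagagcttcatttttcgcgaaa

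The srz-62 summit stood at one end of this range. Its window held 5 copies of TGATAA on either strand, and of the 4645 promoter summits of all protein-coding genes it was the 1 with 5 or more. At least 3 copies were found at 1 of 12 member summits and at 58 of 4645 promoter summits (1.25%). The srr-6 and str-249 summits held 2 copies, and those of str-7, str-39 and srz-56 and the outer str-176 summit held 1. The centre of the single copy lay 1.5 bp from the summit base in srz-56, 8.5 bp in str-39, 19.5 bp in str-7 and 41.5 bp at the outer str-176 summit. Matching distances over all promoter summits are not given here.

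Taken over all member summits, TGATAA was within 50 bp of 7 of 12 (58.3%), against 1498 of 4645 promoter summits (32.2%). Both srr-4 summits, the srr-10 and str-60 summits and the inner str-176 summit had none. Over whole promoters, it was in 177 of 265 member promoters (66.8%) and in 14381 of 19973 promoters in all (72.0%). Of those 177 members, 9 had a promoter summit. The matching share of the 14381 promoters is not given here, so the 9 has no baseline. The other sequences searched, on both strands, were rare at member summits and at all promoter summits. The E-box CACGTG and the nuclear receptor half-site AGGTCA each occurred at 1 of 12 (8.33%), against 4.63% and 4.18% of promoter summits. Both were at the inner str-176 summit, and 1 summit is too few for a comparison. The repeat GAGAGAGA occurred at 0 of 12, against 4.89%. Over whole promoters, members and all genes had CACGTG in 20.4% and 18.4%, AGGTCA in 20.8% and 26.7%, and GAGAGAGA in 3.02% and 8.69%. The windows at member summits had a median GC content of 37.6%, against 40.6% at all promoter summits, and the srr-10 window had the highest among members at 52.5%.

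Among the str genes, str-7 carried the strongest region. It spanned chrV:16100123-16100445 with a signal of 298, among the top 2.48% of the optimal set. Replicate 1 gave it 180 (rank 222 there) and replicate 2 gave it 124 (rank 200), so both placed it alike. Its summit lay 728 bp upstream of str-7 but 411 bp upstream of cth-1, which encodes a cystathionine gamma-lyase. The genes point away from each other, and the summit was nearer to cth-1.

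The str-39 region, chrV:2880401-2880638, had a signal of 157 (rank 1161). It lay 642 bp upstream of str-39 and 850 bp upstream of the divergent ifc-1, an intermediate filament gene, so the chemoreceptor was the nearer of the pair. In replicate 1 its signal was 96.8. No region of replicate 2 covered the summit base, but replicate 2 had a summit of signal 58.6 in the same promoter, 629 bp upstream of the TSS.

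The str-60 region was the one with the largest ratio between the replicates. It spanned chrV:15897461-15897603 with a signal of 107 and lay 452 bp upstream of str-60 and 773 bp upstream of the divergent nhr-213, itself a nuclear hormone receptor gene. It had 76.8 in replicate 1 (rank 1944) and 20.04 in replicate 2 (rank 6541). At str-60 the replicate 1 value was thus well above that of replicate 2, while over all 8557 optimal regions matched in both replicates the median ratio of replicate 1 to replicate 2 was 1.61.

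The gene str-176 had both of its summits to itself, the next protein-coding TSS, that of ant-1.4, being 2946 bp from the nearer summit. The outer region, chrIV:8464173-8464522, lay 532 bp upstream of the longer transcript and had a signal of 63.2, with 27.6 in replicate 1 and 37.2 in replicate 2. The inner region, chrIV:8463079-8463428, had a signal of 100.8, with 57.5 in replicate 1 and 42.5 in replicate 2. Its summit lay 929 bp upstream of the TSS of the shorter transcript and 562 bp downstream of that of the longer one, in an intron of str-176. By signal, replicate 2 was the higher at the outer region and replicate 1 at the inner one. By rank within its own list, replicate 2 placed both higher: 3061 against 7479 for the outer region and 2477 against 3188 for the inner.

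The weakest member region was at str-249, chrIV:7187127-7187476, with a signal of 42.9 (rank 7600 of 8745). The replicate values were 32.6 and 11.6 in replicates 1 and 2. Its summit was 446 bp upstream of str-249, inside an exon of C42D4.13 but outside its annotated coding sequence and 596 bp downstream of that gene's TSS. Rank 10433 in replicate 2 put it outside an equal number of top regions there, and str-249 was the only member lost when replicate 1 was left out. The regions of highest signal of replicate 2 alone, as many as in the optimal set, gave 9 members, against 24.6% of all genes, and those of replicate 1 alone gave the same 10, against 24.5%.

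Among the srz genes, srz-62 had a signal of 297 at chrIV:3899877-3900158 (rank 221), with 188 in replicate 1 and 113 in replicate 2. Its summit lay 502 bp upstream of srz-62, and the TSS of the next nearest gene, F56D6.6, was 3253 bp away. It was therefore the strongest member summit with no nearer neighbour. The srz-56 region, chrIII:2239771-2240120, was much weaker, with a signal of 61.6 in the optimal set, 42.9 in replicate 1 and 15.2 in replicate 2. It lay 825 bp upstream of srz-56 and 309 bp upstream of the divergent C39B5.10, so the neighbour was nearer.

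All srr genes lie on chromosome V, and 3 of them had summits. The upstream srr-4 region, chrV:5018131-5018406, had a signal of 263 (rank 309), with 152 in replicate 1 and 112 in replicate 2, and its summit lay 954 bp upstream. A second srr-4 region, chrV:5018896-5019245, had a signal of 87.6, with 57.8 in replicate 1 and 26.0 in replicate 2, and lay 153 bp upstream. This was the only member summit within 300 bp of the member's TSS. The TSS of srr-6 is 6421 bp from that of srr-4, on the same strand.

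The srr-6 region, chrV:5012175-5012524, had a signal of 77.8 with its summit 453 bp upstream. Its replicate values were 43.4 and 32.5 in replicates 1 and 2. No other protein-coding TSS lay nearer, although the start of a piRNA gene, 21ur-13377, was 367 bp from the summit. The srr-10 region, chrV:7734962-7735311, had a signal of 94.6, with 56.0 in replicate 1 and 36.1 in replicate 2. It lay 482 bp upstream of srr-10 and 226 bp upstream of the divergent clic-1, which encodes a clathrin light chain, so it was nearer to the neighbour.

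**Figure D1:**
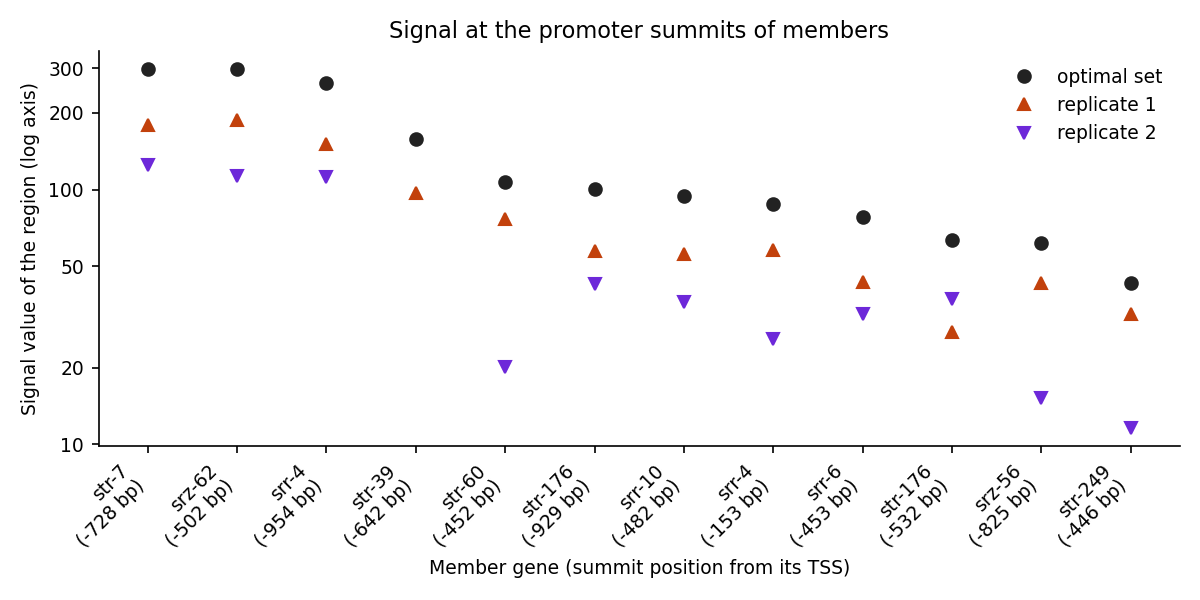
Signal value (log axis) of each of the 12 regions with a summit in a member promoter, in the optimal set (circles), replicate 1 (upward triangles) and replicate 2 (downward triangles), ordered by signal, with the summit position from the member's TSS under each gene name. Values in the optimal set run from 298 at str-7 to 42.9 at str-249. The str-39 summit has no region over it in replicate 2.

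Both replicates had a region over 11 of the 12 summits, and replicate 1 was the higher at 10 of them. The median ratio of replicate 1 to replicate 2 over these was 1.55, close to the 1.61 over all optimal regions. The median signal of the highest summit per gene was 104 over the 10 members with one and 78.8 over all 4946 genes with one. The members' values, from 42.9 to 298, lay inside the range of all genes, from 36.2 to 993.

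The summits of members lay far from their TSS. Positions here are from the TSS whose promoter window held the summit. The highest summit of each of the 10 genes was more than 400 bp upstream, against 28.8% of the 4946 genes with a promoter summit. None lay within 300 bp upstream, where 55.1% of all such genes had theirs. In str-176 the highest summit was 929 bp upstream of the shorter transcript but also 562 bp downstream of the TSS of the longer one. The median position was -572 bp for members and -214 bp for all genes. Of the 12 summits, 10 were intergenic. A summit was shared with the promoter of another gene in 5 of 10 members, against 33.4% of all genes with a summit, and each of the 5 lay upstream of both genes in a divergent pair. The neighbour was nearer than the member in 3 of the 10, namely at str-7, srr-10 and srz-56, against 17.6% of all genes with a promoter summit. With each summit given only to the gene of the nearest TSS, 7 members kept one (2.64%), against 20.8% of all genes.

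**Figure D2:**
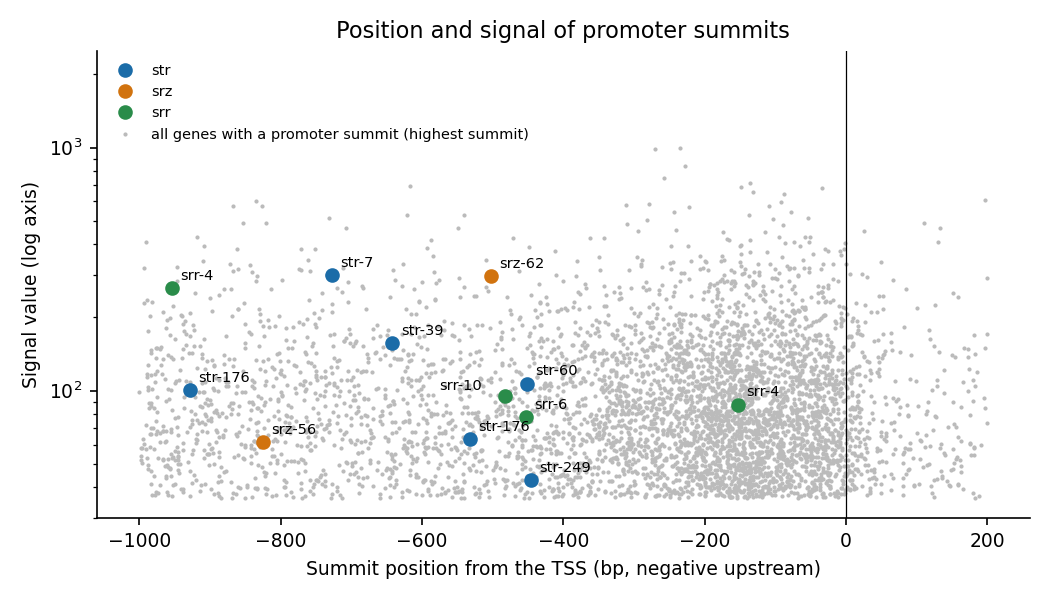
Position of the summit from the TSS (bp, negative upstream) against signal value (log axis). Coloured points are the 12 member summits, by family, and grey points are the highest promoter summit of each of 4946 protein-coding genes. Positions are from the TSS whose promoter window held the summit. By this measure, member summits spread from 954 to 153 bp upstream, and 11 of the 12 lie more than 400 bp upstream.

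The count depended on the width of the promoter, because of this spread. With a window of 500 bp upstream to 100 bp downstream, 5 members had a summit (1.89%), against 19.7% of all genes, and neither srz gene was left. With 2000 bp upstream to 500 bp downstream, 23 had one (8.68%), against 31.5%. In both windows the share of members stayed far under that of all genes. Of the 13 members that the wide window added, 11 had another gene nearer to the summit. The same was not counted for the other genes that this window added, so the 11 has no baseline here. The summit 1898 bp upstream of str-225, of signal 840, lay in an intron of ugt-64, a UDP-glucuronosyltransferase gene. It was 228 bp upstream of the nearest TSS of ugt-64. Likewise the one 1629 bp upstream of str-82 lay 41 bp upstream of cyp-34A10, a cytochrome P450 gene (signal 112), and the one 1083 bp upstream of srr-8 lay 37 bp upstream of ugt-7 (signal 64.4). Members with no nearer gene were str-144, with a summit 1197 bp upstream (signal 75.6), and str-171, with one 1489 bp upstream (signal 59.8).

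For members without a promoter summit, the nearest summit was often many kilobases away. Measured from the nearest TSS of each gene, the median distance to a summit was 9193 bp for the 255 members without one and 6754 bp for all 15027 protein-coding genes without one. A summit lay more than 20000 bp away for 32.2% of these members and for 15.3% of these genes. These distances include members whose promoter sequence is repeated elsewhere in the genome, which are treated below. Families differed: over all members, the median was 7940 bp for str, 22294 bp for srz and 2873 bp for srr genes, and 4210 bp for all protein-coding genes. Of the srz genes 54.0% were more than 20000 bp from a summit, and of the srr genes none was farther than 9557 bp. The most distant member lay 118495 bp from one. In each family the pair of members without a promoter summit that came closest to one were str-144 (1197 bp) and str-114 (1225 bp), srz-99 (1717 bp) and srz-97 (1924 bp), and srr-8 (1083 bp) and srr-9 (2873 bp). The summit nearest to srr-9 was the one shared by srr-10 and clic-1.

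**Figure D3:**
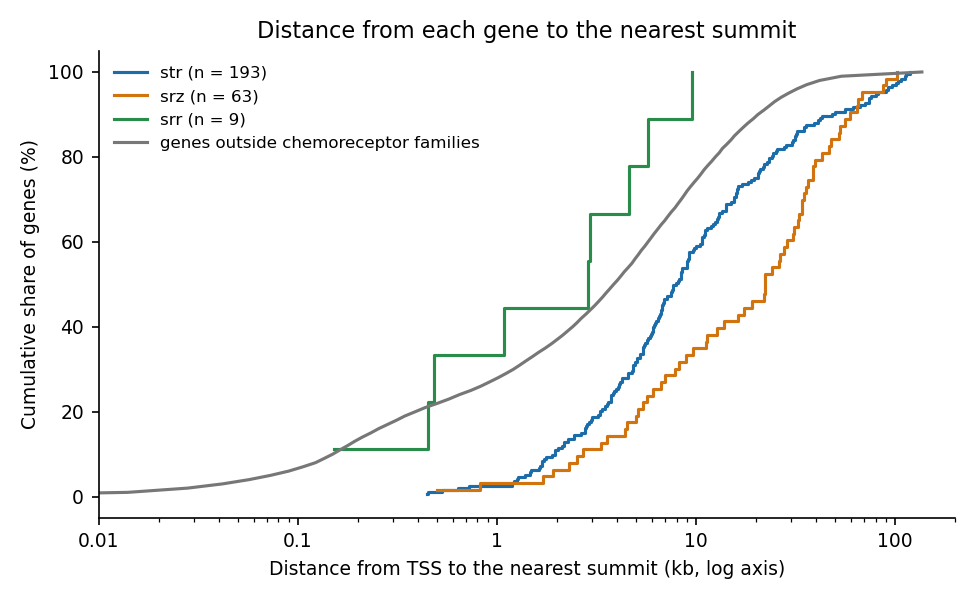
Cumulative share of genes (%) by distance from the TSS to the nearest optimal summit (kb, log axis), for str, srz and srr genes and for protein-coding genes outside chemoreceptor families. The srz line is farthest to the right, with a median of 22294 bp, and the srr line ends at 9557 bp.

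Among the 255 members without an optimal promoter summit were 4 whose neurons are known. The TSS of str-1, used as a marker of the AWB olfactory neurons, was 6703 bp from the nearest summit, which lay 65 bp upstream of cest-10. That of str-2 was 32406 bp from one, in an intron of lsy-12, and that of str-3, expressed in the ASI neurons, was 7510 bp from one. That of str-217, a receptor of the ADL neurons linked to sensitivity to the repellent DEET, was 9269 bp from one. None of these 4 had a promoter summit in the pooled list of 29697 regions, where 9.81% of members and 45.9% of all genes had one. They were picked for what is known of them, after values had been seen.

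Members are not spread evenly over the genome. Chromosome V carries 192 of the 265 and chromosome IV 54, and 170 members (64.2%) have another within 10 kb. On V, 6 of 192 members had a promoter summit (3.13%), against 23.2% of all protein-coding genes on V, and on IV 3 of 54 had one, against 22.0% of all protein-coding genes on IV. The remaining one, srz-56, is on III, while the 15 members on I, II and X had none. Of 591 genes outside the chemoreceptor families with a TSS within 10 kb of a member's, 156 (26.4%) had a promoter summit, a share close to the 26.3% of all genes outside those families. By distance these neighbours lay between the groups. A summit was more than 20000 bp away for 17.4% of them, against 30.9% of members and 11.5% of all protein-coding genes. The part that location had in the members' distances was not tested.

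Members and all genes were alike in the uniqueness of their promoters and the length of the gap upstream. Promoters of which at least 90% of 31-base words occur once in the genome made up 84.2% of members and 85.4% of all genes. Within these, 10 of 223 members (4.48%) had a summit, against 26.9% of such genes. Every member with a summit was in this class, and here a summit lay more than 20000 bp away for 27.8% of members and 9.95% of all such genes. Another 13 members had less than 50% unique words. Neither the absence of a call nor the distance to a summit means much at those 13. The gap to the next protein-coding gene upstream had a median of 1034 bp in members and 937 bp in all genes. With a gap of at least 1000 bp, 7 of 137 members (5.11%) had a summit, against 24.1% of all such genes.

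The other 17 chemoreceptor families gave similar counts. Together they had a promoter summit in 34 of 1037 genes (3.28%), against 10 of 265 in str, srz and srr genes. In the Str superfamily, which also holds str, these were 14 of 220 srh, 3 of 61 sri, 2 of 39 srj and 2 of 67 srd genes. Of the other solo families, srw had 4 of 109, and srbc and srsx had 0 of 71 and 0 of 37. In the Sra superfamily sre had 3 of 54, and in the Srg superfamily srx had 3 of 101, srv 2 of 30 and srg 1 of 61. There was no gene with a promoter summit in 8 of the 17, and the highest share was 6.67%, in srv. The srr share of 33.3% rests on 9 genes.

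**Figure D4:**
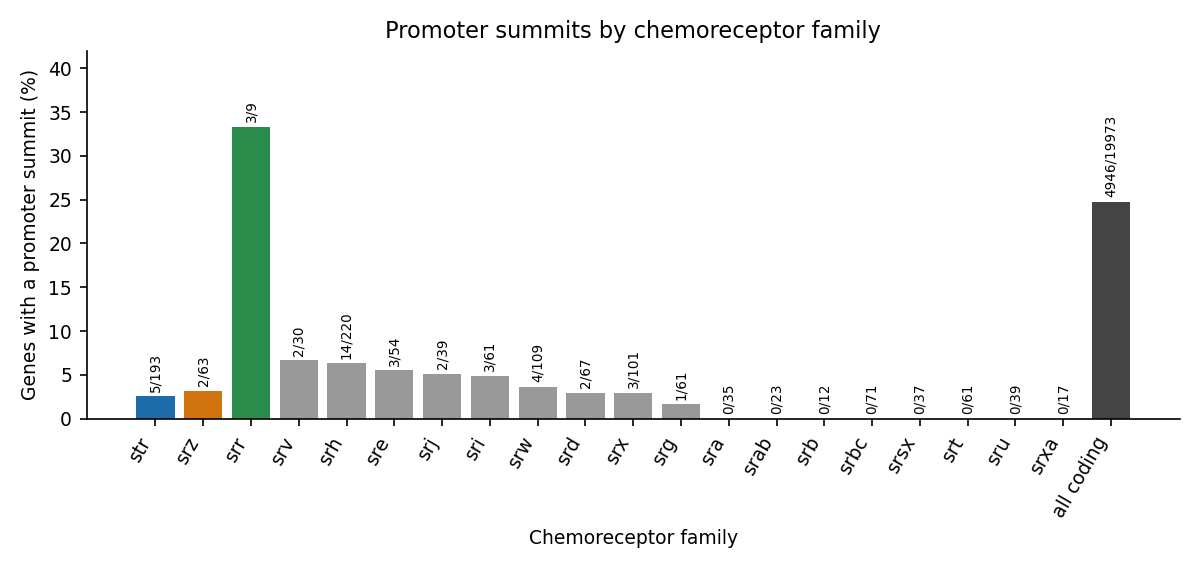
Share of genes (%) with an optimal promoter summit in the str, srz and srr families (coloured), in the other 17 chemoreceptor families (grey) and in all protein-coding genes (black), with the count of genes over each bar. The str and srz bars stand at 2.59% and 3.17%, the srr bar at 33.3% on 9 genes, and the bar of all genes at 24.8%.

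Regions below the optimal set added members, all at low signal. All 10560 pooled regions at the highest −log10 q gave the same 10 members, against 28.6% of all genes. The whole pooled list, which keeps background regions, gave 26 members (9.81%), against 45.9% of all genes: 16 str, 4 srz and 6 srr genes. The 16 members it added had signals from 5.75 to 22.9 and ranks from 12036 to 28164, so there was a break between them and str-249 at 42.9. The highest of them was srr-9 (22.9, with 12.3 in replicate 1 and 8.76 in replicate 2), followed by str-141 (13.3) and srr-2 (13.1).

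**Figure D5:**
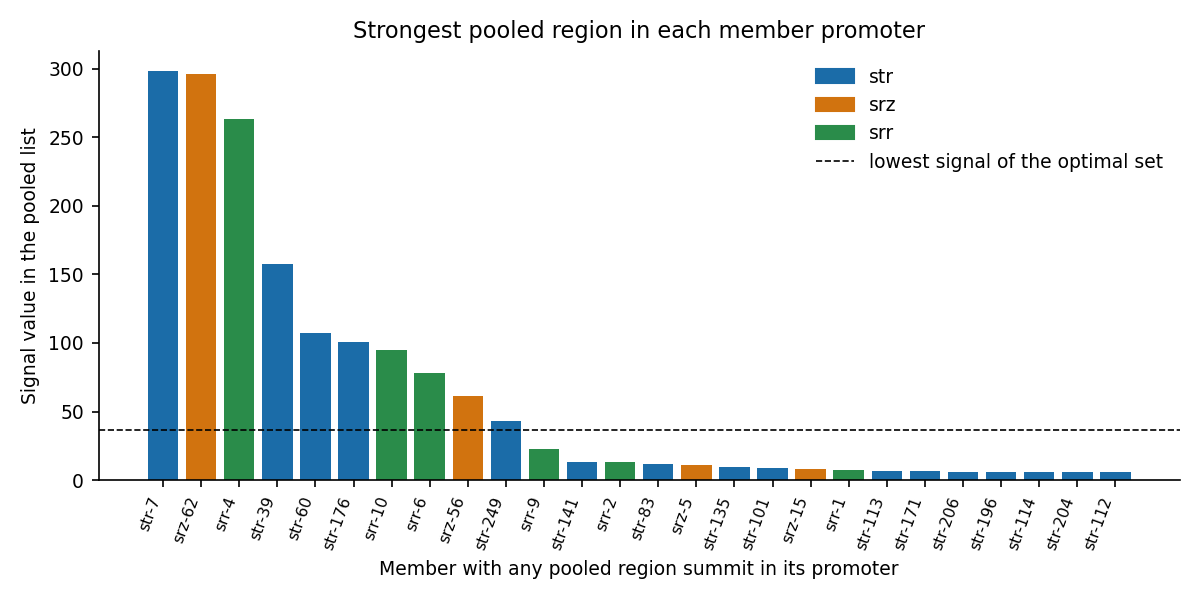
Signal value of the strongest pooled region with a summit in each member promoter, for the 26 members that have one, coloured by family, with the lowest signal of the optimal set as a dashed line. The 10 members above the line run from 298 to 42.9, and the 16 below it from 22.9 to 5.75.

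The replicate lists, also with background regions, gave 26 members in replicate 1 (9.81%, against 46.7% of all genes) and 29 in replicate 2 (10.9%, against 47.1%). Beyond the 10, replicate 1 had 16 and replicate 2 had 19, and 7 (2.64% of members) were in both: srr-3, srr-8, srr-9, srz-15, srz-97, str-31 and str-101. The matching share over all genes was not counted, so whether this overlap is large or small is not known. The highest of these in both lists was str-31, which had 15.2 in replicate 1 and 13.4 in replicate 2 as signal, its summits 50 and 46 bp upstream, but the pooled list had no summit in its promoter. Over the optimal, pooled and replicate lists together, 40 members (15.1%) had a promoter summit somewhere, against 55.7% of all genes. Of the str genes 170 had none in any list, of the srz genes 54, and of the srr genes 1, srr-7.

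Few summits lay within the genes themselves. Between the gene's annotated start and end, 2 of the 265 members had an optimal summit, against 10.1% of all protein-coding genes. Gene length was not matched here, so these shares do not compare summits per length of gene. Both summits were in introns: the inner str-176 summit and one in str-81, chrV:19230440-19230789, with a signal of 52.6. The str-81 summit lay 3740 bp upstream of that gene's protein-coding TSS, in a gene record that extends beyond this TSS.

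Some genes that act downstream of or beside the receptors had summits. Of 34 genes for sensory transduction and the sensory cilium, 4 (11.8%) had one in the promoter, against 24.8% of all genes, a difference that was not tested. These were tax-6, the calcineurin A gene (signal 177, 937 bp upstream), egl-4, a cGMP-dependent protein kinase gene (168, 597 bp upstream), klp-11, a kinesin-2 motor subunit gene (87.4, 372 bp upstream), and daf-19, which encodes the RFX factor of ciliated neurons (81.6, 257 bp upstream). The channel genes tax-2, tax-4, osm-9 and ocr-2, the G protein gene odr-3 and the receptor gene odr-10 had none. Among 10 markers of ciliated sensory neurons, 0 had a promoter summit, whereas all 9 intestine markers found in the annotation did, with a median signal of 133. All of these neuron markers except gcy-5 and gcy-8 were also among the 34 genes above, so the 0 is not a separate result. The neuron markers did not include daf-19 or klp-11, which had summits. The part that tissue composition had in these counts was not tested.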

How the data were processed

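Members and gene lists were chosen with earlier results of these data known, and no list was tested. Per the deposited file descriptions, the authors called regions on each replicate and on pooled alignments against a control alignment and derived an optimal set with the irreproducible discovery rate (IDR) procedure. Neither the caller nor its threshold is stated in the labels or headers. The deposited signal values and −log10 q values are the authors' own. The q values share a ceiling (4.32 in the pooled list) and were used for 1 alternative list. The ce11 lists were used. The lists of the ce10 build were not used.

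The summit was the start of a region plus the deposited offset, as a 1-based position. In 1 optimal entry the offset lay beyond the region's end and was set to its last base. Promoters covered 1000 bp before and 200 bp after each TSS of protein-coding transcripts (Ensembl release 115). Genes and regions are not replicates, and 1 group allows no comparison of samples, so counts stand beside those of all protein-coding genes without a p-value. Replicate values come from the region of highest signal over the summit. Sequences are from the RefSeq copy of WBcel235, and 5 of the 12 windows are printed. The assignment of summits to promoters was tested on 2000 simulated summits, of which 0 were assigned wrongly. Python 3.11.15, pandas 2.3.3 and numpy 2.4.6 were used. Named genes were every member with an optimal promoter summit and its neighbour where that was nearer, the 2 others of each family nearest to a summit, and pathway genes with one. Neighbours that were not nearer, pathway genes without a summit, the list below the optimal set, str-31, str-81, the wide-window examples and the 4 receptors of known neurons were added after values had been seen. In a list of 10 intestine markers fixed by symbol, opt-2 was not found.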

Additional observations from a re-analysis of the deposited data

How the results depend on the processing

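The count of 10 members was 5 with the narrow promoter window (500 bp upstream to 100 bp downstream) and 23 with the wide one (2000 bp to 500 bp). For str genes it was 2 and 15, against 5, for srz genes 0 and 4, against 2, and for srr genes 3 and 4, against 3. The number with a nearer neighbour was 1 and 14 in these windows, against 3, and 4 when genes of every type were counted. Of the 2 srz genes, 1 was left when each summit went to its nearest TSS and 1 among the 4372 regions of highest signal. Without replicate 1 or replicate 2, counts of members ran from 9 to 10. The median signal was 42.5 in the replicate 2 list and 67.2 in the replicate 1 list, against 104 in the optimal set. Signal was used to rank regions only within a list, so these medians do not measure the effect of leaving a replicate out (the cause was not tested). Counts of all members were 11 by any overlap of the region, 8 among those 4372 regions, 10 by the most upstream TSS, 10 among unique promoters and 7 with an upstream gap of at least 1000 bp. The last pair was chosen after seeing the data. TGATAA was at 6 of 12 member summits within 25 bp (18.8% of all promoter summits) and at 8 within 100 bp (44.3%). In each setting with a count of all genes, the share of all members together was below that of all genes. The 9 srr genes alone went the other way in the optimal set (33.3%, against 24.8%) and in the whole pooled list (66.7%, against 45.9%). No paired analysis was possible because there is only 1 group. Depth is unknown, so a lack of a region is a lack of a call in these lists.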
